A study of Mus musculus with 6 samples.

Results

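Fibro-adipogenic progenitors are connective-tissue cells that lie between the fibers of skeletal muscle, and 10 genes used as their markers were followed in muscle of FLExDUX4 and WT mice. The markers were Pdgfra, Ly6a, Cd34, Dpt, Gsn, Dpp4, Pi16, Smoc2, Mfap5 and Clec3b, taken by symbol from the mouse gene rows of the deposited table, where each has a single row. They are 10 of 52550 mouse genes in the table, and each of the 10 passed the filter on low counts that left 13396 genes to compare. In FLExDUX4 mice the human DUX4 gene was inserted backwards, with lox sites on either side for Cre to turn it. These mice had no Cre, and the little DUX4 they make comes from leakage. The WT mice were littermates without the transgene. Each genotype was represented by 3 male mice, and the labels give an age of 13 weeks and the quadriceps as the muscle, whereas the methods of the study give the triceps at a younger age. RNA was measured with QuantSeq, a 3′ tag method in which the number of reads of a gene does not grow with the length of its transcript.

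The counts used were totals over the mice of a genotype, 13110125 on genes for FLExDUX4 and 18367364 for WT. The labels tie none of the columns for single mice to a genotype, so values per mouse are not given. A ratio of such totals has no replicate check, no test across mice was run, and 1 mouse could set any ratio below. A CI here is a 95% interval for counting error and covers nothing else. Totals were scaled with TMM, a method that sets the bulk of genes to equal levels, and levels are given as CPM, the count of a gene relative to that scaled total, with no division by length. When the ERCC and SIRV spike-in RNAs set the scale instead, every log2 ratio moved by -0.28 and the median over all genes compared by the same amount, from -0.001 to -0.28. As skeletal muscle, the samples had 10 myofiber genes that together reached 138894 CPM in FLExDUX4 and 140403 CPM in WT, which does not tell the quadriceps from the triceps. The 4 mouse genes of the table whose symbols begin with Dux had 0 counts in both genotypes, and the human transgene was not analysed here.

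Fibro-adipogenic progenitors carry the platelet-derived growth factor receptor PDGFRα and the surface protein Sca-1, encoded by Ly6a. They make collagen and other matrix, support satellite cells during repair, and can turn into adipocytes or scar-forming fibroblasts when muscle is diseased. Several of these markers are shared with other cells: Cd34 and Ly6a are also active in blood vessel lining, and gelsolin, encoded by Gsn, is present in most cell types. In bulk RNA, fewer cells of a type and less RNA per cell cannot be told apart.

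The marker genes lie on 7 chromosomes of GRCm38 and are all annotated as protein-coding. Pdgfra spans chr5:75152292-75198215 and Cd34 spans chr1:194938819-194961279, both on the plus strand. Ly6a spans chr15:74994877-74998031 on the minus strand, and Mfap5 spans chr6:122505845-122529290 on the plus strand. Dpt (chr1:164796644-164824266), Gsn (chr2:35256380-35307892), Pi16 (chr17:29317680-29330593), Smoc2 (chr17:14279506-14404790) and Clec3b (chr9:123150946-123157432) are on the plus strand and Dpp4 (chr2:62330073-62412231) on the minus strand. Genes that share exon bases with Pdgfra, Cd34 or Dpp4 had 0 or 1 counts in each genotype, and an antisense gene at Pi16, AC162182.1, was not analysed here. RefSeq sequence from 250 bases before to 50 bases after the transcript start (build GRCm38.p6) was at hand for 6 of the 10 markers, in 8 windows. The promoters printed are that of the receptor which defines these cells, that of Cd34, whose counting interval (given further on) lay below 0, and that of Gsn, the most abundant marker. Capitals mark GGGCGG on either strand, the GC box. Each is written 5′ to 3′ along the gene, which in these genes is the plus strand.
Pdgfra, chr5:75152001-75152300: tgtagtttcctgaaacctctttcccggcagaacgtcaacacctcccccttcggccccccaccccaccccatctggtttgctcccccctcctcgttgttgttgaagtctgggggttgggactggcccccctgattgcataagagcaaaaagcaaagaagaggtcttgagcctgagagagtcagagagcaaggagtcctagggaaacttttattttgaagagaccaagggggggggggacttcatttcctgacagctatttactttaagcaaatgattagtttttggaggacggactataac
Cd34, chr1:194938571-194938870: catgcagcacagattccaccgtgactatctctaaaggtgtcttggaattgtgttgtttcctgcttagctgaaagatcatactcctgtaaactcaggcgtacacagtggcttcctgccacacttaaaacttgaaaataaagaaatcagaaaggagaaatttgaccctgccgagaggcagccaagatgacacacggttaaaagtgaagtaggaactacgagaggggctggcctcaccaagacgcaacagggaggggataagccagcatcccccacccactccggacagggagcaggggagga
Gsn, first start, chr2:35256109-35256408: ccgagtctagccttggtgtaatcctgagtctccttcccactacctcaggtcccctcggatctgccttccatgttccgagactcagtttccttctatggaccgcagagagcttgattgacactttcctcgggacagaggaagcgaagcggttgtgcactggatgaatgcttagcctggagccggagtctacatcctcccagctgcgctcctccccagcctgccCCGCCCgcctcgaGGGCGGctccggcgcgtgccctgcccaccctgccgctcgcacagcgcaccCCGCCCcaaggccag
The Gsn window held 3 GC boxes, whose first bases lie at -28, -15 and 36 from the start, and had a GC content of 63.7% with 20 CpG dinucleotides. The Pdgfra and Cd34 windows had 51.0% and 50.0% GC with 5 and 7 CpG, near the median of 52.7% and 7 over 32851 windows of the same length. The motifs searched, on both strands, were the TATA box (TATAAA), the GC box, the CCAAT box (CCAAT) and the STAT site (TTCNNNGAA). The Pdgfra and Cd34 windows held none of them. Among all windows, 13.6% held the TATA box, 35.7% the GC box, 37.4% the CCAAT box and 8.30% the STAT site. Gsn has 2 further windows for other starts. Its secreted and its cytoplasmic form differ at the 5′ end, so reads from the 3′ end do not separate them.

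Ly6a and Mfap5 had higher scaled totals in FLExDUX4 and Cd34 a lower one, beyond counting error, whereas the ratio of Pdgfra was near 0. Of the 10 markers, 6 had a higher and 4 a lower scaled total in FLExDUX4, with a median log2 ratio of 0.05, beside a median of -0.001 over all genes compared. With spike-in scaling 3 of the 10 were higher, and the signs of Pdgfra, Gsn and Clec3b turned. Mfap5 had the highest ratio and was the one marker with a size of at least 0.5 on the log2 scale, a size that 31.4% of all genes compared reached. Among the 6573 genes with 100 to 1000 counts in both totals together, a class that holds 6 of the markers, 1443 reached it. Of the 2727 genes with more counts, which include the other 4 markers, 64 did. By direction, 15.7% of all genes compared were at least 0.5 higher and 15.7% at least 0.5 lower. The CI lay above 0 for 3 markers (Ly6a, Gsn and Mfap5) and below 0 for 1 (Cd34), against 20.5% and 20.6% of all genes compared. Counted over either direction, 4 of 10 markers had an interval that did not hold 0, a share close to the 41.1% of all genes compared. Under 4 of the other scalings and filters the CI of Gsn held 0, which left 3 of 10. With spike-in scaling it was 7 of 10, as the CIs of Dpt, Smoc2 and Dpp4 then lay below 0, and the share over all genes compared was 54.7%. On that scale 2 of 10 markers, Cd34 and Dpp4, had a size of at least 0.5, against 37.6% of all genes compared.

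**Figure D1:**
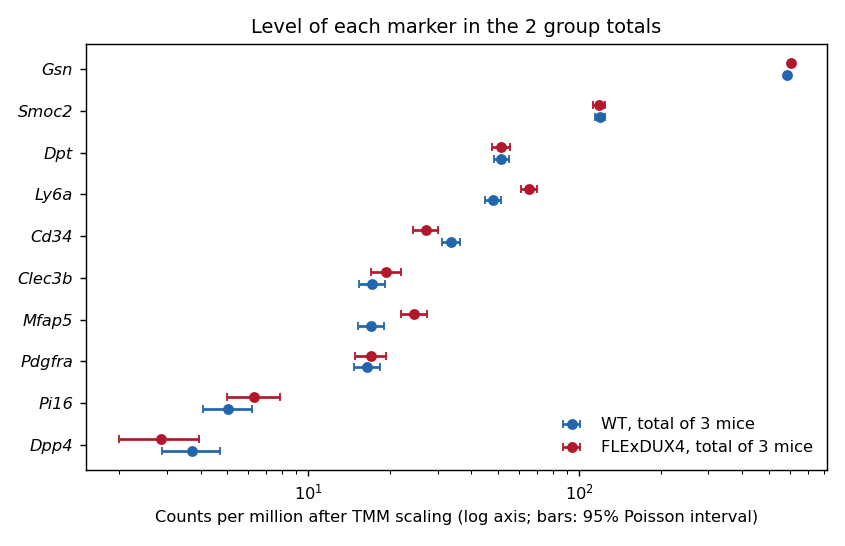
Level of each of the 10 markers in CPM after TMM scaling, on a log axis, with WT totals in blue and FLExDUX4 totals in red (3 mice each) and bars for the 95% Poisson interval of the count. Points of a gene lie close together for Gsn, Smoc2, Dpt and Pdgfra, and apart for Ly6a and Mfap5, which are higher in FLExDUX4, and for Cd34, which is lower.

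**Figure D2:**
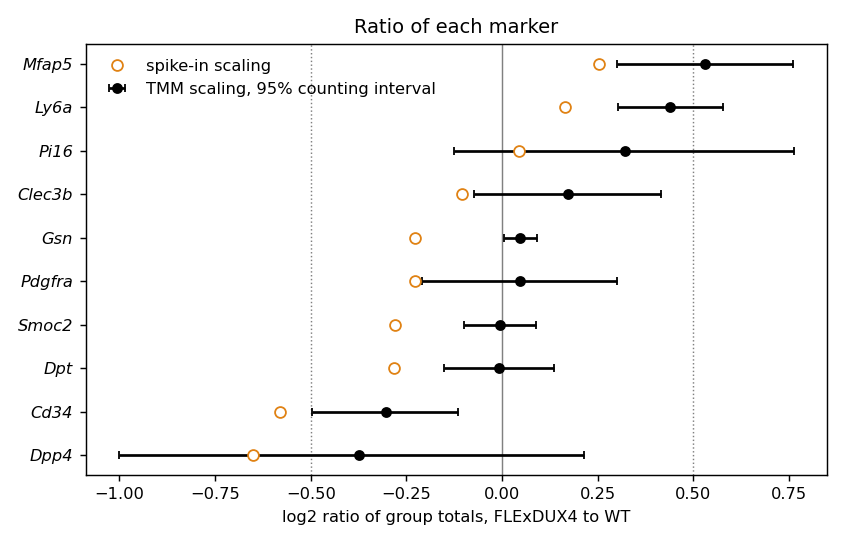
Log2 ratio of the group totals, FLExDUX4 to WT, for each marker with TMM scaling (filled points, bars for the 95% counting interval) and with spike-in scaling (open points). Dotted lines mark a size of 0.5, and Mfap5 at 0.53 is the one filled point beyond them.

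The surface markers went in different directions. Pdgfra, the receptor by which these cells are usually sorted or traced, had 221 counts in FLExDUX4 and 306 in WT. These are 17.0 CPM (CI 14.9 to 19.4) and 16.5 CPM (CI 14.7 to 18.4), a log2 ratio of 0.05 (CI -0.21 to 0.30). The CI spans folds from 0.865 to 1.23, so counting error alone leaves room for a difference of that size in either direction. Variation between mice is not part of this interval.

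Ly6a had 845 counts in FLExDUX4 and 891 in WT, or 65.1 and 48.0 CPM. Its log2 ratio was 0.44 (CI 0.30 to 0.58), a level 35.7% above that of WT, and it remained above 0 with spike-in scaling at 0.16. Among the 2727 genes with 1000 counts or more, 97.9% had a lower ratio than Ly6a. Ly6a belongs to a family of neighbouring genes of similar sequence on chromosome 15, and 8.13% of the 50-base windows from the last 500 bases of its transcripts also occur in transcripts of Ly6c1, Ly6c2, Ly6i or I830127L07Rik. The count of Ly6a is therefore uncertain to the extent that the counting split or dropped such reads. Ly6c1, which marks endothelial and some blood cells, had 969 counts against 1004 and a ratio of 0.47 (CI 0.34 to 0.59). The other 3 of these relatives had 0 or 1 counts in each genotype.

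Cd34, a sialomucin found on progenitors of several tissues and on endothelium, was lower in FLExDUX4. It had 353 counts against 624, which are 27.2 and 33.6 CPM, and a log2 ratio of -0.30 (CI -0.50 to -0.11). With spike-in scaling the ratio was -0.58. Of the genes with 100 to 1000 counts, 43.9% had a ratio of larger size. An antisense gene, Gm16897, shares 148 exon bases with Cd34 and had 0 counts in FLExDUX4 and 1 in WT.

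Smoc2, Dpt and Gsn, the markers with the most counts besides Ly6a, had ratios close to 0. Smoc2, a secreted calcium-binding matrix protein, had 1541 counts in FLExDUX4 and 2212 in WT, which are 118.8 and 119.2 CPM. Its log2 ratio came to -0.005 (CI -0.10 to 0.09). Dpt, which encodes the matrix protein dermatopontin, had 666 counts against 958, which are 51.3 and 51.6 CPM, and its ratio was -0.01 (CI -0.15 to 0.14). Both ratios sat near 0 with narrow intervals, and each moved to -0.28 with spike-in scaling. Gsn encodes an actin-severing protein and was the most abundant marker, ranking 109 among all genes compared by mean CPM. It had 7862 counts in FLExDUX4 and 10878 in WT, or 605.9 and 586.1 CPM. The CI of its ratio of 0.05, from 0.01 to 0.09, lay just above 0, and it held 0 with upper-quartile scaling, with unscaled gene totals and with either other filter, where the ratio ran from 0.018 to 0.0389. The ratio was -0.23 with spike-in scaling (CI -0.27 to -0.19). Of the genes with 1000 counts or more, 76.4% had a ratio of larger size than Gsn.

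Markers of the stem-like pool of these cells, which lies around vessels and in fascia, were at low or middle levels. Mfap5, a protein of elastic microfibrils, had 319 counts in FLExDUX4 and 316 in WT in spite of the smaller FLExDUX4 total, or 24.6 and 17.0 CPM. Its log2 ratio was 0.53 (CI 0.30 to 0.76), a fold of 1.44 (CI 1.23 to 1.69). In its class of 100 to 1000 counts, 19.7% of genes had a ratio of larger size. With spike-in scaling the ratio was 0.25. Mfap5 lay just past the size of 0.5 and Ly6a, at 0.44, just short of it.

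Clec3b encodes tetranectin, a plasminogen-binding lectin-like protein. It had 252 counts against 320, or 19.4 and 17.2 CPM, and a log2 ratio of 0.17 (CI -0.07 to 0.41). Pi16, a membrane-anchored peptidase inhibitor that marks this pool in many tissues, had 82 counts against 94 and a ratio of 0.32 (CI -0.13 to 0.76). Dpp4, a cell surface peptidase used with Pi16 to mark the same cells, had the fewest reads of the 10, 37 in FLExDUX4 and 69 in WT, at 2.85 and 3.72 CPM. Its ratio of -0.37, with a CI that spans folds from 0.5 to 1.2, is the lowest of the markers. For these 3 genes the interval held 0, but that of Dpp4 lay below 0 with spike-in scaling (-0.65, CI -1.28 to -0.06). Summed over Dpp4, Pi16, Mfap5 and Clec3b, a grouping made by known role with the values in view, the totals were 690 and 799 counts, or 53.2 and 43.1 CPM, with a ratio of 0.30 (CI 0.16 to 0.45) and of 0.03 with spike-in scaling. Mfap5 carried much of this: without it, Dpp4, Pi16 and Clec3b together had 371 and 483 counts and a ratio of 0.14, with a CI that held 0 (-0.06 to 0.33).

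**Figure D3:**
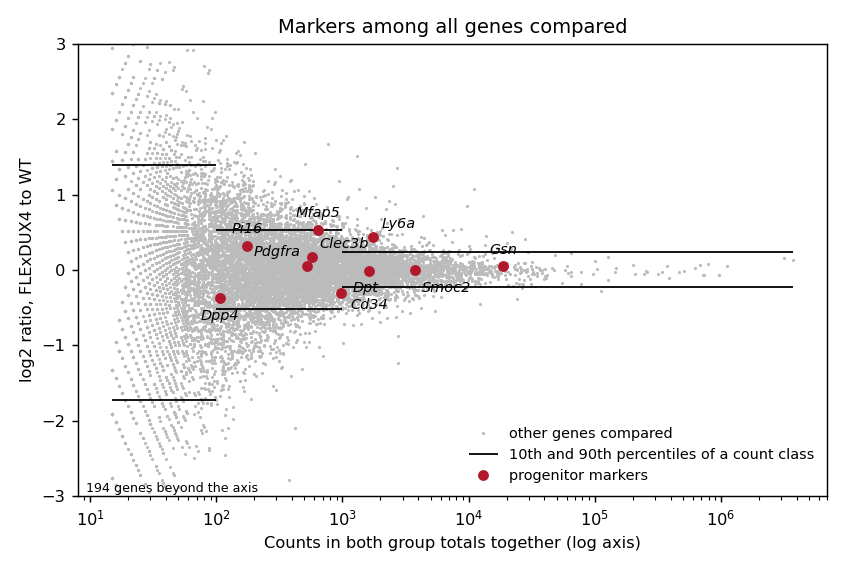
Log2 ratio of the group totals against the counts in both totals together (log axis) for the 13396 genes compared, in grey, with the 10 markers in red. Black lines give the 10th and 90th percentiles within each class of counts, from -0.51 to 0.54 for 100 to 1000 counts and from -0.23 to 0.23 above that, and among the markers with 1000 counts or more Ly6a at 0.44 is the one outside its lines, while 194 genes lie beyond the axis.

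The order of levels was much the same in both genotypes. In WT the markers ranked Gsn, Smoc2, Dpt, Ly6a, Cd34, Clec3b, Mfap5, Pdgfra, Pi16 and Dpp4 from the highest CPM to the lowest. Counting intervals of neighbours in this order overlapped for Dpt and Ly6a, for Clec3b and Mfap5, for Mfap5 and Pdgfra, and for Pi16 and Dpp4. In FLExDUX4, Ly6a stood above Dpt with intervals that did not overlap, and Mfap5 stood above Clec3b with overlapping intervals. The 10 markers made up 0.0929% of gene counts in FLExDUX4 and 0.0907% in WT. Gsn alone was 64.6% of the marker counts in FLExDUX4 (CI 63.7 to 65.4) and 65.3% in WT (CI 64.5 to 66.0), so a sum over the markers mainly follows Gsn. Without Gsn, the other 9 markers had 4316 counts against 5790, a log2 ratio of 0.09 (CI 0.04 to 0.15), or -0.18 with spike-in scaling. Within those 9, the share of Ly6a was 19.6% in FLExDUX4 and 15.4% in WT, that of Mfap5 was 7.39% and 5.46%, and that of Cd34 was 8.18% and 10.8%.

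A ratio between 2 markers within the same totals does not depend on how the totals are scaled. Relative to Pdgfra, the log2 ratio was 0.48 for Mfap5 (CI 0.14 to 0.83), 0.39 for Ly6a (CI 0.10 to 0.68) and -0.35 for Cd34 (CI -0.67 to -0.03). For the other 6 markers the interval relative to Pdgfra held 0, with values from -0.43 for Dpp4 to 0.27 for Pi16. Ly6a against Cd34 gave 0.75 (CI 0.51 to 0.98), and Ly6a against Mfap5 gave -0.09 (CI -0.36 to 0.18). Of the 45 pairs of markers, 19 had an interval that did not hold 0, and each of these included Ly6a, Cd34 or Mfap5. The share over pairs of all genes was not computed, so this count cannot be called high or low. Ly6a, Cd34 and Mfap5 also had intervals off 0 on their own in these same counts. The pairs are therefore no separate evidence for them. The 21 pairs among the remaining 7 markers all had intervals that held 0, which leaves room for differences as large as those intervals. For Dpt against Smoc2 the interval ran from -0.18 to 0.17, and for Dpp4 against Pi16 from -1.47 to 0.06.

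**Figure D4:**
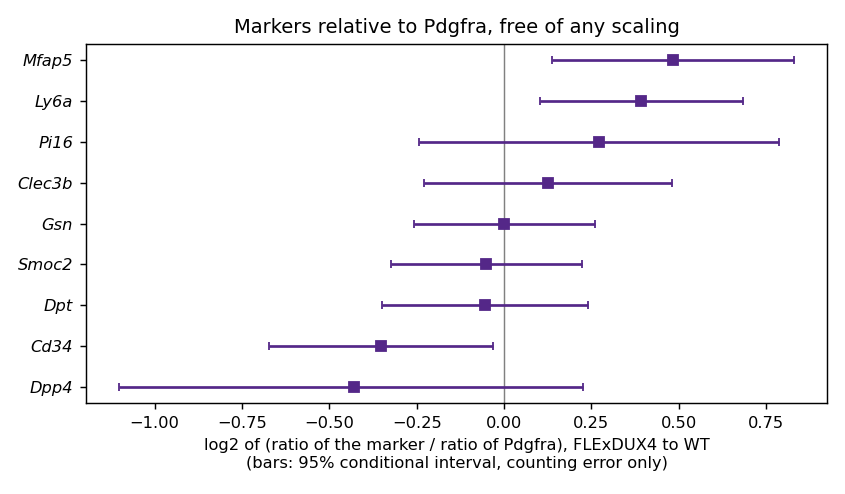
Log2 ratio (FLExDUX4 to WT) of each of the other 9 markers divided by that of Pdgfra, with bars for the 95% conditional interval from counting error. Mfap5 and Ly6a lie above 0 and Cd34 below 0 with their whole intervals, and the bars of the other 6 markers cross 0.

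Other genes of connective-tissue cells went both ways, as the markers did. Of 28 such genes in a list of fibroblast markers, 26 were compared, 12 higher and 14 lower in FLExDUX4, with a median log2 ratio of -0.03, and the list summed to 2171 CPM in FLExDUX4 and 1965 CPM in WT. The CI lay above 0 for 7 of them and below 0 for 7. Dcn, the matrix proteoglycan decorin and the most counted of the list, had 9583 counts against 13359 and a ratio of 0.04 (CI -0.001 to 0.08). The next most counted, the type I collagen genes Col1a2 and Col1a1, were higher, at 0.33 (CI 0.28 to 0.38) and 0.53 (CI 0.47 to 0.60). With spike-in scaling they were at 0.05 and 0.26. In the list sums, Col1a2 had 489 CPM in FLExDUX4 and 390 CPM in WT, and Col1a1 had 293 and 202 CPM. Other collagen genes of the list were not higher. Col3a1 was at 0.006 (CI -0.07 to 0.08), Col6a3 at -0.30 (CI -0.46 to -0.15) and Col15a1 at -0.24 (CI -0.44 to -0.04). Vit, which encodes the matrix protein vitrin, had the highest ratio at 0.64 (CI 0.24 to 1.04) from 111 and 102 counts. Ebf2, a transcription factor of adipocyte precursors, had the lowest at -0.95 (CI -1.28 to -0.64) from 113 and 314 counts. Osr1 and Hic1, transcription factors used to trace these progenitors, had ratios of -0.81 (CI -1.44 to -0.23) and -0.08 (CI -0.56 to 0.39). Cd55 and Igfbp6, which mark the same pool as Pi16 and Dpp4, had ratios of -0.09 (CI -0.39 to 0.21) and 0.17 (CI -0.07 to 0.42).

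Signals that act on these progenitors or come from them were mixed. Of 30 genes listed, 29 were compared, 13 higher and 16 lower, with a median log2 ratio of -0.12, and Il6 had 0 counts in both genotypes. The CI lay above 0 for 7 and below 0 for 12. Over the 24 genes with at least 10 counts in each total the median was 0.07. The genes removed by this floor were Tgfb1, Pdgfc, Pdgfd, Smo and Gli1. Each had fewer than 10 counts in FLExDUX4, more in WT and a ratio below 0. The floor thus took out lower genes only, and the turn in sign cannot be put down to few counts as such. Among the ligands of PDGFRα, Pdgfa had 491 counts against 766 and a ratio of -0.12 (CI -0.29 to 0.04), and Pdgfc had 6 counts against 35. Pdgfb, whose product binds this receptor as well, went the other way, with 234 counts against 280 and a ratio of 0.26 (CI 0.0008 to 0.51). Pdgfrb, the sister receptor found on pericytes too, had a ratio of 0.14 (CI -0.10 to 0.38). Neither receptor of this family had an interval away from 0. In the hedgehog pathway, which restrains fat formation by these cells, Ptch1 had a ratio of -0.84 (CI -1.37 to -0.36) from 48 and 124 counts, and Gli1 had 6 and 12 counts. Tgfb1, the ligand that drives these cells to make matrix, had the lowest ratio of the list at -2.88 (CI -4.97 to -1.59), from 4 and 47 counts. Il33, a cytokine that these cells release to regulatory T cells, had a ratio of 0.58 (CI 0.14 to 1.02), and Il15 had the highest of the list at 0.71 (CI 0.13 to 1.30). The inhibitor Timp3 was the most counted, with 3201 against 3309 and a ratio of 0.47 (CI 0.40 to 0.54).

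Markers of other cells of the muscle were read beside the progenitor markers, and their part in the ratios above was not tested. The 15 endothelial markers summed to 728.2 CPM in FLExDUX4 and 750.5 CPM in WT, with 7 higher, 8 lower and a median log2 ratio of -0.03. Pecam1 and Cdh5, which define endothelium, had ratios of 0.06 (CI -0.07 to 0.20) and -0.03 (CI -0.19 to 0.14), while the water channel gene Aqp1, the most counted, was at -0.16 (CI -0.23 to -0.09) and the ends of the list were Esam at 0.73 and Cldn5 at -1.34. The 10 satellite cell markers summed to 45.6 and 49.7 CPM, and the 8 with enough counts were 4 higher and 4 lower, with a median of -0.004. Sdc4 had the most counts and a ratio of 0.01 (CI -0.21 to 0.23), and Chrdl2 was the highest at 0.56 (CI -0.19 to 1.31). Pax7, the transcription factor that defines satellite cells, had 35 counts against 89 and a ratio of -0.82 (CI -1.44 to -0.25), and Heyl, a Notch target, had the lowest of the list at -1.43 (CI -2.16 to -0.79). Of these lists, that of adipocyte markers stood highest, with 10 of 12 higher and a median of 0.41, and summed levels of 2574 and 2344 CPM. Car3 alone made up 1963 CPM of the FLExDUX4 sum and 1897 CPM of the WT sum, so these sums mainly follow Car3. The adipocyte genes with the most counts, Car3 and Fabp4, had ratios of 0.05 and 0.11. Pparg, the regulator of fat cell formation, had 0.87 from 69 and 54 counts. Cfd, the adipokine adipsin, had 1468 counts against 1144 and the highest ratio of that list, 0.88 (CI 0.76 to 0.99), and Cebpa the lowest among those with at least 50 counts, -0.09 (CI -0.69 to 0.49).

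Lists for the remaining cell types had medians closer to 0 than that of the adipocyte list. Tenocyte markers had a median log2 ratio of 0.15 over 8 genes, with 7 higher, and summed to 212.9 CPM in FLExDUX4 and 198.7 CPM in WT, and Comp had 0 counts in FLExDUX4 and 10 in WT. Fmod, the most counted of them, was at 0.09 (CI -0.03 to 0.20), Tnmd at 0.37 (CI 0.09 to 0.65) and Scx, a transcription factor of tendon cells, at -1.01 (CI -1.50 to -0.56). Schwann cell markers had a median of 0.20 over 7 genes and summed to 98.5 and 94.9 CPM. Pericyte and smooth muscle markers had a median of -0.03 over 10 genes, with sums of 1286 and 1381 CPM. Des alone gave 793 CPM of the FLExDUX4 sum and 905 CPM of the WT sum, so these sums mainly follow Des. Des, which myofibers express too, was the most counted and the lowest at -0.19 (CI -0.23 to -0.15), Rgs5 was at 0.06 (CI -0.003 to 0.13), and the smooth muscle genes Acta2 and Tagln were at 0.38 (CI 0.22 to 0.54) and 0.49 (CI 0.19 to 0.79). Leukocyte and macrophage markers had a median of -0.06 over 12 genes, 5 higher and 7 lower, and summed to 118.2 and 117.6 CPM. Lyz2, the most counted, was at -0.02 (CI -0.19 to 0.14), and Csf1r was at 0.01 (CI -0.26 to 0.28). Adgre1, Cd68, C1qb and Cd14 lay between -0.62 and -0.83 from 75 to 173 counts each, with CIs that held 0 for Adgre1 and Cd68. C1qa and C1qc, with 341 and 322 counts, were at 0.08 and -0.14. Mrc1 was at -0.11 from 437 counts, and Ptprc was at 0.43 from 136 counts. The CIs of C1qa, C1qc, Mrc1 and Ptprc held 0. Itgam, with 41 counts, had the highest ratio of the list and a CI above 0. Cd163, a marker of resident macrophages, was at 0.92 (CI 0.57 to 1.26). The 10 myofiber genes had a median of -0.02 and ranged from -0.19 for Myh1 to 0.12 for Actn3, with Acta1, the most counted, at 0.05. With spike-in scaling the adipocyte list was the one of these lists whose median stayed above 0, at 0.14, and the median of the progenitor markers was -0.23 with 3 of 10 above 0.

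**Figure D5:**
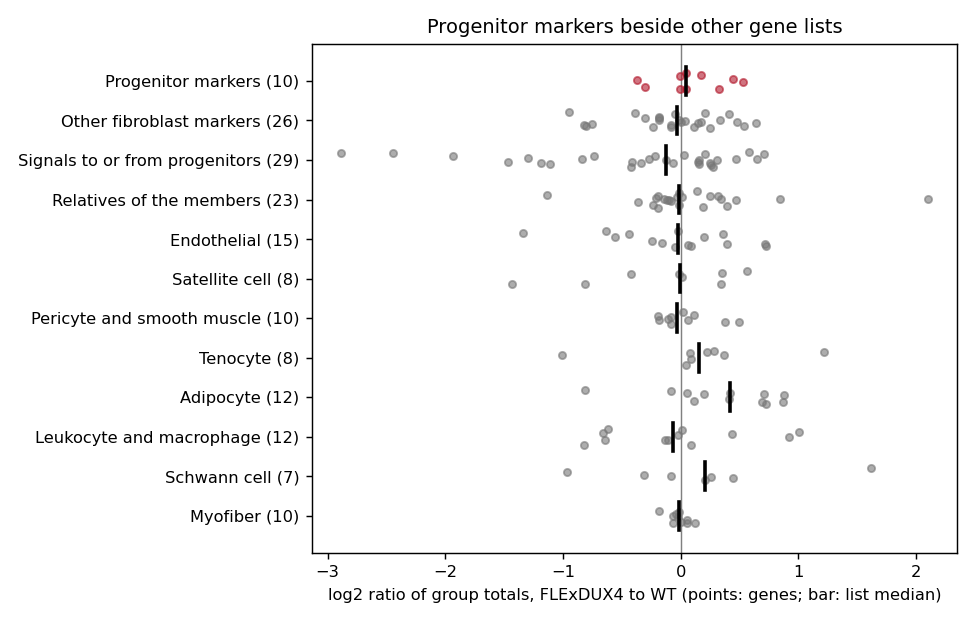
Log2 ratio of the group totals for the genes of each list (points, progenitor markers in red), with the median of the list as a black bar and the number of genes compared in brackets. The median of the progenitor markers is 0.05 and that of the adipocyte list 0.41, and the points of the progenitor markers span -0.37 to 0.53.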

How the data were processed

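Per the labels and the methods, RNA of 3 FLExDUX4 and 3 WT mice was made into QuantSeq libraries. The authors trimmed the reads with Cutadapt 1.16 and aligned them with STAR 2.5.3a to GRCm38 joined with spike-in sequences, and featureCounts 1.6.2 stands in their processing notes. The deposited values used here are raw read counts per gene, summed by the authors over each genotype. Left aside were 6 columns for single samples, since no label names them, and the authors' own comparison by DESeq2 (mean, log2 fold change, error, statistic, p-value and adjusted p-value). The planned edgeR test, which needs values per mouse, was therefore not run.

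Genes were filtered with filterByExpr of edgeR 4.0.16 under R 4.3.3, which kept 13396, and TMM factors were taken over these. Log2 ratios used a pseudocount of 0.5, and intervals were 95% Clopper-Pearson intervals given the sum of both totals, for counting error only (Python 3.11.15, scipy 1.17.1). Ratios between markers are conditional odds ratios. Because the totals give 1 value per genotype, no test across mice was run. The scripts were tested on simulated counts. The markers and lists were chosen with earlier results of these data known. Named genes were all markers and, of other lists, the gene with the most counts, those at either end among genes with at least 50 counts, and further listed genes chosen with their values known. Single genes of the Schwann cell list are not reported here. Dpp3, a listed relative of a marker, matched no row. Itgam has 2 rows, of which 1 holds counts. Gene models are from GENCODE M21 (GRCm38), and 9 of 10 starts equal the deposited ones, that of Pi16 being the exception. Windows of 50 bases were compared with all transcripts of that annotation.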

Additional observations from a re-analysis of the deposited data

How the results depend on the processing

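No paired analysis was possible because no label names the columns for single mice, and for the same reason edgeR and DESeq2 tests and leaving out each replicate were not run here. Spike-in scaling moved the ratios the most: the median of the markers was -0.23, and the ratios were -0.23 for Pdgfra, 0.16 for Ly6a, -0.58 for Cd34, -0.28 for Dpt, -0.23 for Gsn, -0.28 for Smoc2, 0.25 for Mfap5 and -0.10 for Clec3b. With it, 2 markers (Cd34 and Dpp4) had a size of at least 0.5, against 5037 genes (37.6%), and 7 an interval that did not hold 0, against 54.7% of genes, and list medians were -0.31 for other fibroblast markers, -0.30 for endothelial, -0.12 for tenocyte and -0.30 for myofiber markers. The cause was not tested. Under RLE, upper quartile, gene totals, a pseudocount of 5, a floor of 10 counts per total and no filter, no marker moved beyond its counting interval, and Mfap5 lay between 0.50 and 0.53. The interval of Gsn came to hold 0 under 4 of these (upper quartile, gene totals, no filter and the floor of 10 counts), so 3 markers rather than 4 had an interval off 0. The median of the signal list turned to 0.0695 with the floor of 10 counts, from -0.1247. Medians that turned sign elsewhere were those of the tenocyte and Schwann cell lists with spike-in scaling (-0.07 for the latter) and, within 0.02 of 0, those of the satellite cell list and the relatives of the markers with a pseudocount of 5. The myofiber median was -0.0354 with upper quartile, -0.0492 with gene totals and -0.0338 with the floor of 10 counts, against -0.0193. A size of at least 1 was reached by 0 markers and 1797 genes, and a size of at least 0.25 by 5 markers and 7187 genes. With no filter, 10042 genes reached 0.5, against 4203, since genes with few counts were added.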

Other observations

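Relatives of the markers by sequence or family were at varied levels. Of 33 listed, 23 had enough counts to be compared, 10 higher and 13 lower in FLExDUX4, with a median log2 ratio of -0.02. Sparc, a matrix glycoprotein of the family of Smoc2, was the most counted, with 4700 counts against 5405 and a ratio of 0.31 (CI, for counting error, 0.26 to 0.37). Its close relative Sparcl1 had 1260 against 2324 and a ratio of -0.37 (CI -0.47 to -0.27). Crispld1, of the protein family of Pi16, had the highest ratio among those with at least 50 counts, 0.85 (CI 0.29 to 1.42) from 63 and 50 counts. Avil, of the gelsolin family, had the lowest at -1.14 (CI -1.78 to -0.57) from 32 and 102 counts. Ly6e, in the family of Ly6a, had a ratio of -0.01 (CI -0.18 to 0.15), and Podxl, a sialomucin related to Cd34, had -0.08 (CI -0.30 to 0.13).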
